A study of Mus musculus with 12 samples.

Results

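A set of 9 mural cell genes was followed in whole mouse retina: the pericyte genes Pdgfrb, Rgs5, Cspg4, Abcc9 and Kcnj8, and the smooth muscle genes Acta2, Myh11, Tagln and Des. They are 9 of the 55487 genes of the count table and were chosen by name, with Ensembl identifiers matched to symbols, as markers of the cells that wrap retinal vessels. The retinas came from 5xFAD mice (strain label Tg6799) and from WT mice (C57BL/6J), aged 6 months or 1 month, and each of these 4 groups has 3 libraries. 5xFAD mice are an Alzheimer disease model that carries mutant human transgenes, among them APP, driven by the Thy1 promoter in neurons, and human transgene RNA was not analysed here. Poly-A RNA was sequenced from an unstranded library preparation, and the study compared the genotypes at each age. All 12 libraries come from whole tissue, so the mural cells are a minor source of the RNA measured.

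Mural cells sit on the outside of endothelial tubes, with pericytes on capillaries and smooth muscle cells on arterioles and larger venules. Endothelial cells release the platelet-derived growth factor that pericytes receive through the receptor encoded by Pdgfrb, and in the retina this signal recruits pericytes, which steady the blood-retina barrier and adjust capillary width. Smooth muscle cells contract through an actin and myosin apparatus, and in both cell types an ATP-sensitive potassium channel couples the membrane potential to cell metabolism.

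The promoter sequences of the 3 genes that fell together with age in 5xFAD retinas, and of the smooth muscle actin gene for comparison, are shown first. Each runs from 250 bases before to 50 bases after the RefSeq start of the gene, 5′ to 3′ on the gene's strand of GRCm38.p6. Rgs5 lies on the plus strand (chr1:169655251-169655550), Kcnj8 on the minus strand (chr6:142571565-142571864), Abcc9 on the minus strand (chr6:142702225-142702524) and Acta2 on the minus strand (chr19:34255324-34255623). Capitals mark CArG-like letters, which are the form bound by serum response factor in smooth muscle genes: CC, then 6 bases of which at least 5 are A or T, then GG.
Rgs5: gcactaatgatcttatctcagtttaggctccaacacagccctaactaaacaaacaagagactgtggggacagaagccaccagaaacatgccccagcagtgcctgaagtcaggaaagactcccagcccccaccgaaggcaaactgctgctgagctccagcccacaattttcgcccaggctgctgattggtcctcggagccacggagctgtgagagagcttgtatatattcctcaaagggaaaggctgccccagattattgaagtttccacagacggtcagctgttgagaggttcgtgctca
Kcnj8: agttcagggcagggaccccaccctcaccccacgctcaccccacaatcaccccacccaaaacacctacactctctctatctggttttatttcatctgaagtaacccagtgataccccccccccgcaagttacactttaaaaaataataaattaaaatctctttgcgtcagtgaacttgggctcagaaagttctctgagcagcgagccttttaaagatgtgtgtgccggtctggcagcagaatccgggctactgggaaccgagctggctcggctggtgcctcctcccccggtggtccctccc
Abcc9: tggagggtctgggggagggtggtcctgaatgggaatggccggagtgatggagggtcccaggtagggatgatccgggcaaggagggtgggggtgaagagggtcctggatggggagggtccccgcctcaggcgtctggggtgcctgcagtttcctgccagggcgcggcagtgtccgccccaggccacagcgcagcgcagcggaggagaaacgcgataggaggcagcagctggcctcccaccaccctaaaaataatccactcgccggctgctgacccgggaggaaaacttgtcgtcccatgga
Acta2: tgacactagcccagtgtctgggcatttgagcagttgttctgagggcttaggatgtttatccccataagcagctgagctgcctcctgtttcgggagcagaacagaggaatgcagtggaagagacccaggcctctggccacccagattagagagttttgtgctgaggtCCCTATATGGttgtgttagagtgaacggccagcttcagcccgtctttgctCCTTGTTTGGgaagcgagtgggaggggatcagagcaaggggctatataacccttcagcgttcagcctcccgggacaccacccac

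RefSeq sequences were found for 6 of the 9 genes (the 4 above, Des and Cspg4). On a search of both strands, Acta2 was the only one of the 6 with CArG-like letters in this window. It held CCCTATATGG, which begins 84 bases before the start, and CCTTGTTTGG, which begins 34 bases before it. Each has 1 departure from the strict form, in which all 6 inner bases are A or T. Of 32851 RefSeq promoters of this length, 9.98% held letters with at most 1 departure and 1.63% held the strict form, which none of the 6 genes did. The MCAT letters CATTCC, on either strand, were found in Abcc9 and Acta2 and in 14.7% of all promoters. The letters TATAAA were found in none of the 6 and in 13.6% of all promoters. A match describes the letters alone, and binding was not measured.

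Depth ran from 10.9 to 19.6 M expected counts per library, and between 17073 and 21033 genes had a count. No label ties a library to its own animal, so p-values measure the spread between samples, which may be technical. Ribosomal RNA took its largest shares in 5xFAD at 6 months replicate 1 (1.11% of counts), 5xFAD at 6 months replicate 2 (0.446%) and WT at 1 month replicate 2 (0.325%). The mean transcript length behind a count was 4193 to 4224 bases in the 5xFAD libraries at 1 month and 3577 to 4016 bases in the other 9 libraries. For Abcc9, Rgs5 and their neighbours in expression, WT at 1 month replicate 1 stood apart from the other WT libraries of that age and beside the 5xFAD ones, and the tests of Rgs5 and Abcc9 that use it and the correlations between mural genes are also given without it. Levels are given as CPM, expected counts divided by library size after TMM scaling. Müller glia and astrocyte genes, led by Glul, summed to between 3351 and 4587 CPM in all 12 libraries.

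A gene was called changed at a Benjamini-Hochberg adjusted p below 0.05 in the edgeR quasi-likelihood test over 16233 genes. Log2 fold changes are given with an approximate SE. Of the 9 mural genes, 8 had enough counts to be tested, and Des did not. In tissue RNA, fewer cells of a type and less RNA per cell cannot be told apart.

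Per base of transcript, Rgs5 and Pdgfrb were the most abundant mural genes and Des the least. In TPM, a level per length made from the counts and a count-weighted transcript length, the mean over 12 libraries was 21.6 for Rgs5, 6.46 for Pdgfrb and 2.61 for Tagln. It was 1.44 for Acta2, 1.26 for Abcc9, 1.17 for Kcnj8, 0.660 for Cspg4, 0.499 for Myh11 and 0.177 for Des. Rgs5 came first and Pdgfrb second in each of the 4 groups. In 5xFAD at 6 months the mean TPM was 12 ± 1.62 for Rgs5, 6.55 ± 1.63 for Pdgfrb, 3.20 ± 0.602 for Tagln, 0.551 ± 0.134 for Abcc9 and 0.506 ± 0.507 for Acta2 (SD, n = 3). The last 2 of these did not differ beyond their spread. In 5xFAD at 1 month it was 40.8 ± 5.42 for Rgs5, 8.27 ± 1.53 for Pdgfrb, 2.89 ± 1.23 for Acta2, 2.56 ± 0.624 for Abcc9 and 2.27 ± 0.923 for Tagln, where the 3 lower genes overlapped.

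**Figure D1:**
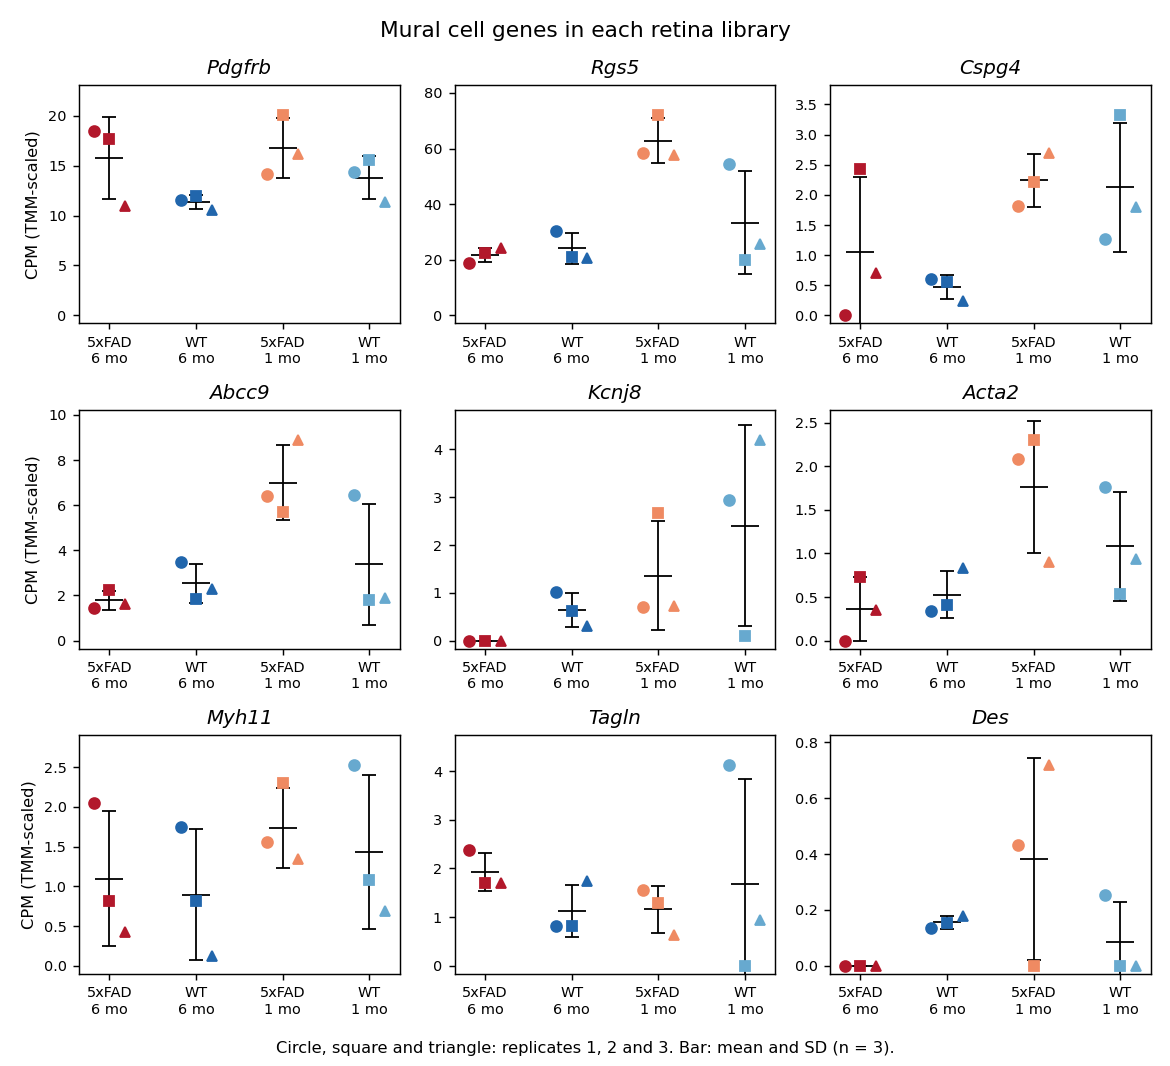
Levels of the 9 mural genes in each library, in TMM-scaled CPM (vertical axis, one scale per gene), for 5xFAD and WT at 6 months and 5xFAD and WT at 1 month (horizontal axis). Circles, squares and triangles are replicates 1, 2 and 3, and the bar is the mean with its SD (n = 3; lower ends below 0 are not drawn). Rgs5 and Abcc9 were highest in 5xFAD at 1 month, with 1 WT library of that age level with them, and Kcnj8 had no counts in 5xFAD at 6 months.

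Age in 5xFAD retinas was the comparison in which mural genes were called. At 6 months against 1 month, Rgs5, Abcc9 and Kcnj8 fell, none rose, and Pdgfrb, Cspg4, Acta2, Myh11 and Tagln did not pass the test. These 3 of 8 genes stand beside a background of 23.2% of all 16233 genes called in either direction, 10.8% higher and 12.4% lower. The median log2 fold change was -1.31 over the 8 mural genes and 0.03 over all genes. The plot of fold changes shows all 4 comparisons with their SE.

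Rgs5 encodes a regulator that shortens G protein signalling in pericytes and arterial smooth muscle. It measured 19.0, 22.3 and 24.1 CPM in 5xFAD at 6 months (223 to 339 counts) and 58.3, 72.1 and 57.8 CPM in 5xFAD at 1 month (644 to 783 counts). The groups were well apart, with the lowest 1-month library above the highest 6-month one. The log2 fold change was -1.52 ± 0.31 (edgeR quasi-likelihood, adjusted p = 0.00450). Without the 3 libraries richest in ribosomal RNA, which leaves 1 library in 5xFAD at 6 months that is assumed to vary like the other groups, it was -1.37 and no longer called (edgeR adjusted p = 0.0930).

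Abcc9 encodes SUR2, the sulfonylurea receptor subunit of the vascular ATP-sensitive potassium channel. It measured 1.45, 2.26 and 1.63 CPM in 5xFAD at 6 months and 6.42, 5.71 and 8.88 CPM in 5xFAD at 1 month. Every 1-month library was above every 6-month one. The log2 fold change was -1.97 ± 0.50 (edgeR quasi-likelihood, adjusted p = 0.00576), and -2.08 when the 3 libraries richest in ribosomal RNA were left out (edgeR adjusted p = 0.0422).

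Kcnj8 encodes Kir6.1, the pore subunit that pairs with SUR2. It had 0 counts in all 3 libraries of 5xFAD at 6 months, and 0.694, 2.67 and 0.718 CPM in 5xFAD at 1 month, from 8, 29 and 8 counts. With a floor of 3 counts over the 6-month group, 0.0786 CPM, it was at least 17.1-fold lower at 6 months (edgeR quasi-likelihood, adjusted p = 0.00631). Replicate 2 held most of the 45 counts at 1 month. The floor, here and below, covers only counting error in the group at 0. Counts of the other group are taken as exact.

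Kcnj8 and Abcc9 are neighbours on the minus strand of chromosome 6 of GRCm38, at 142564837 to 142571614 and 142587862 to 142702315, with 16247 bases between them. The other pair of ATP-sensitive potassium channel subunits, Kcnj11 (Kir6.2) and Abcc8 (SUR1), which is best known from neurons and pancreatic beta cells, was not called in any comparison. Kcnj11 measured 12.2, 5.58 and 8.45 CPM in 5xFAD at 6 months and 7.81, 8.74 and 8.08 CPM in 5xFAD at 1 month (log2 fold change 0.09 ± 0.28, edgeR adjusted p = 0.856). For Abcc8 the log2 fold change was -0.41 ± 0.17 (edgeR adjusted p = 0.0847). Its groups did not overlap, with 17.22 to 20.04 CPM in 5xFAD at 6 months and 20.995 to 27.70 CPM in 5xFAD at 1 month. Of all genes, 18.9% had all 6-month 5xFAD libraries below all 1-month ones. In the 4-gene channel list the 2 vascular subunits were called lower, beside 12.4% of all genes. Whether they fell more than the other pair was not tested.

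Pdgfrb, the receptor that holds pericytes to endothelium, was the mural gene whose level differed least between the ages in 5xFAD. It measured 18.5, 17.7 and 11 CPM in 5xFAD at 6 months and 14.1, 20.1 and 16.2 CPM in 5xFAD at 1 month, and the groups overlapped. The log2 fold change was -0.10 ± 0.22 (edgeR quasi-likelihood, adjusted p = 0.799). Its counts, 155 to 219 per library in these groups, exceed those of Abcc9 and Kcnj8 in each library.

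Cspg4 encodes the NG2 proteoglycan, a surface protein of pericytes that oligodendrocyte precursors also carry. It measured 0, 2.43 and 0.710 CPM in 5xFAD at 6 months and 1.82, 2.21 and 2.69 CPM in 5xFAD at 1 month. Replicate 1 at 6 months had no count while replicate 2 was level with the 1-month libraries, and the log2 fold change of -1.09 ± 0.94 was not called (edgeR adjusted p = 0.441).

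Among the contractile genes, Acta2, smooth muscle actin, measured 0, 0.728 and 0.355 CPM in 5xFAD at 6 months and 2.08, 2.30 and 0.897 CPM in 5xFAD at 1 month. The groups did not overlap, but at 0 to 25 counts per library the difference was not called (log2 fold change -2.25 ± 1.05, edgeR adjusted p = 0.131), though the DESeq2 Wald test called it (adjusted p = 0.0497). Tagln, which encodes the actin-binding protein SM22, pointed the other way. It measured 2.39, 1.70 and 1.70 CPM in 5xFAD at 6 months and 1.56, 1.29 and 0.628 CPM in 5xFAD at 1 month (log2 fold change 0.73 ± 0.95, edgeR adjusted p = 0.629). Its groups did not overlap either. Myh11, smooth muscle myosin heavy chain, measured 2.05, 0.809 and 0.426 CPM in 5xFAD at 6 months and 1.56, 2.30 and 1.35 CPM in 5xFAD at 1 month, overlapping (log2 fold change -0.67 ± 0.91, edgeR adjusted p = 0.646).

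Of the 8 tested genes, 4 had all 6-month 5xFAD libraries below all 1-month ones and 1 had them above, where 18.9% and 17.5% of all genes did. Des encodes desmin, the intermediate filament of muscle. It had 0 counts in all libraries of 5xFAD at 6 months and 5, 0 and 8 counts in 5xFAD at 1 month. Against the floor Des was 4.93-fold lower at 6 months, with the 1-month counts taken as exact. Under a filter of at least 1 count in all libraries Des was tested and not called (edgeR adjusted p = 0.172).

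**Figure D2:**
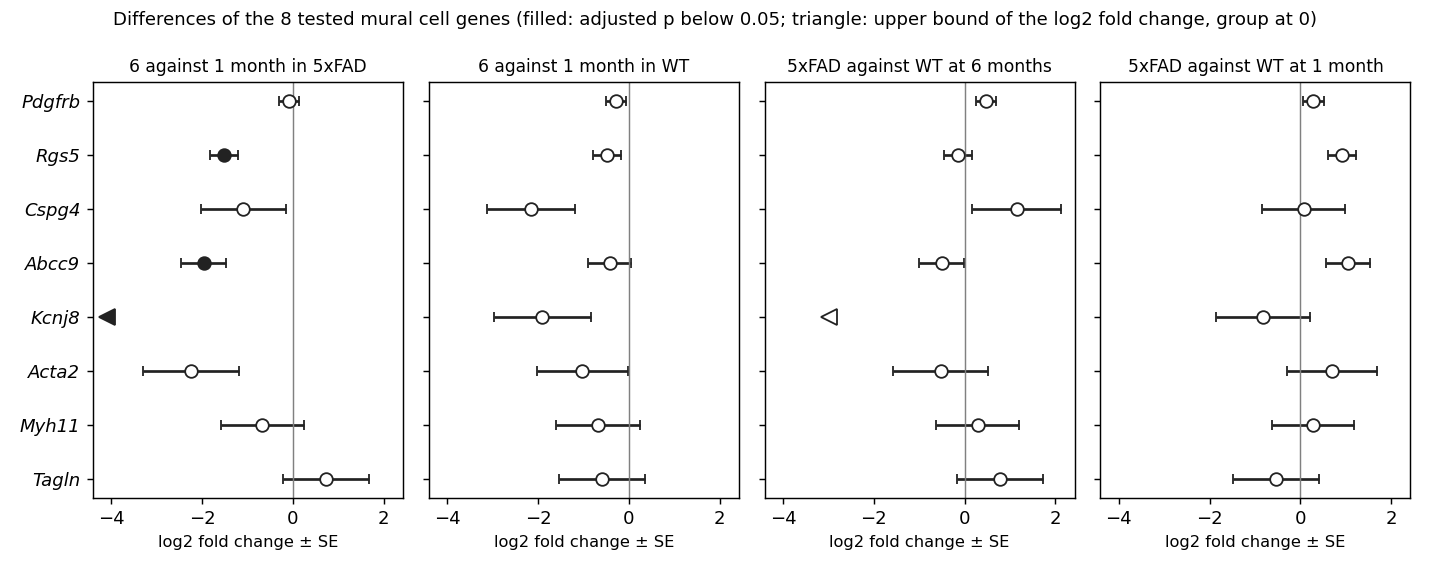
Log2 fold changes of the 8 tested mural genes (horizontal axes, with SE) for 6 months against 1 month in 5xFAD and in WT, and for 5xFAD against WT at 6 months and at 1 month. Filled symbols passed an adjusted p of 0.05, and the triangles of Kcnj8 mark the upper bound of the log2 fold change against a group at 0. Rgs5, Abcc9 and Kcnj8 in the first panel are the only filled symbols.

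In WT retinas none of the 8 mural genes was called between 6 months and 1 month in edgeR, where 10.5% of all genes were, 6.01% higher and 4.49% lower at 6 months. Cspg4 alone had an unadjusted p below 0.05 in edgeR (0.0367), as did at least the 10.5% of all genes called. DESeq2 called none either. The median log2 fold change was -0.63 over the 8 genes and -0.01 over all genes.

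Rgs5 measured 30.5, 20.99 and 20.8 CPM in WT at 6 months and 54.6, 20.0 and 25.5 CPM in WT at 1 month. Replicate 1 of each age was the highest of its group, and the groups overlapped (log2 fold change -0.48 ± 0.31, edgeR adjusted p = 0.401). Abcc9 measured 3.50, 1.83 and 2.28 CPM in WT at 6 months and 6.47, 1.80 and 1.88 CPM in WT at 1 month (log2 fold change -0.42 ± 0.48, edgeR adjusted p = 0.659). Without WT at 1 month replicate 1 both differences turned positive, to 0.11 for Rgs5 and 0.49 for Abcc9, and were not called.

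Kcnj8 was unevenly counted in WT, with 15, 12 and 5 counts (1.01, 0.611 and 0.299 CPM) at 6 months and 35, 1 and 49 counts (2.94, 0.0899 and 4.20 CPM) at 1 month. Replicate 2 at 1 month was thus below all 6-month ones and the other 2 were above them (log2 fold change -1.90 ± 1.06, edgeR adjusted p = 0.293). Cspg4 was the single mural gene whose WT groups did not overlap. It measured 0.606, 0.560 and 0.240 CPM in WT at 6 months and 1.26, 3.32 and 1.80 CPM in WT at 1 month (log2 fold change -2.16 ± 0.97, edgeR adjusted p = 0.175), and 15.2% of all genes had all 6-month WT libraries below all 1-month ones.

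The remaining genes overlapped between the ages in WT. Pdgfrb measured 11.6, 11.9 and 10.5 CPM in WT at 6 months and 14.4, 15.5 and 11.4 CPM in WT at 1 month (log2 fold change -0.28 ± 0.22). Acta2 ran from 0.337 to 0.838 CPM in WT at 6 months and from 0.539 to 1.76 CPM in WT at 1 month (-1.02 ± 1.01 on the log2 scale). Myh11 ran from 0.120 to 1.75 CPM in WT at 6 months and from 0.685 to 2.52 CPM in WT at 1 month (-0.68 ± 0.91). Tagln had 12, 16 and 29 counts in WT at 6 months and 49, 0 and 11 counts in WT at 1 month (-0.59 ± 0.94). Des had 2, 3 and 3 counts in WT at 6 months and 3, 0 and 0 counts in WT at 1 month.

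Between the genotypes at 6 months, no mural gene was called in edgeR or DESeq2, where edgeR called 6.38% of all genes, 2.48% higher and 3.89% lower in 5xFAD. The median log2 fold change over the 8 genes was 0.07, and 0.00279 over all genes. Of the 8, 2 had an unadjusted p below 0.05 in edgeR, Kcnj8 (0.00339) and Pdgfrb (0.0440), as did at least the 6.38% of all genes called. Kcnj8 had 0 counts in all 5xFAD libraries and 15, 12 and 5 counts in the WT libraries, so the groups did not overlap, as 12.8% of all genes did with 5xFAD below WT. It was at least 7.96-fold lower in 5xFAD against the floor, just outside the threshold (edgeR quasi-likelihood, adjusted p = 0.0513). It was called with a filter of at least 1 count in all libraries (edgeR adjusted p = 0.00683), with the dependence on length and GC removed (0.0410) and without WT replicate 3 (0.0390), and the adjusted p ran from 0.00683 to 0.188 over all alternatives. Des had 0 counts in all 5xFAD libraries too and 2, 3 and 3 counts in the WT libraries. Against the floor it was 1.99-fold lower, with the WT counts taken as exact. Under the filter of at least 1 count in all libraries Des was not called here (edgeR adjusted p = 0.432).

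The other genes overlapped between the genotypes at 6 months. Rgs5 (19.0, 22.3 and 24.1 CPM in 5xFAD, 30.5, 20.99 and 20.8 CPM in WT) had a log2 fold change of -0.14 ± 0.31 (edgeR adjusted p = 0.862). Abcc9 (1.45, 2.26 and 1.63 CPM in 5xFAD, 3.50, 1.83 and 2.28 CPM in WT) had one of -0.50 ± 0.49 (edgeR adjusted p = 0.631). Pdgfrb was higher in 2 of the 5xFAD libraries, at 18.5 and 17.7 CPM, and at 11 CPM in the third, while the WT libraries lay between 10.5 and 11.9 CPM (0.47 ± 0.22, edgeR adjusted p = 0.224). The 2 high libraries are those richest in ribosomal RNA, and without them and WT at 1 month replicate 2 the log2 fold change was -0.05; the part of ribosomal RNA content in it was not tested. Acta2 (-0.53 ± 1.05), Myh11 (0.29 ± 0.92), Tagln (0.78 ± 0.94) and Cspg4 (1.14 ± 0.97) had SEs near or above their log2 fold changes.

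At 1 month, edgeR called no mural gene between the genotypes, where it called 19.6% of all genes (10.7% higher and 8.91% lower in 5xFAD), and the median log2 fold change was 0.28 over the 8 genes and -0.04 over all genes. Unadjusted p fell below 0.05 for Rgs5 (0.0122) and Abcc9 (0.0388), as it did for at least the 19.6% of all genes called. The DESeq2 Wald test called Rgs5 alone. Rgs5 measured 58.3, 72.1 and 57.8 CPM in 5xFAD and 54.6, 20.0 and 25.5 CPM in WT. All 5xFAD libraries were above all WT ones, as for 18.7% of all genes, with WT replicate 1 close below them. The log2 fold change was 0.91 ± 0.31 (edgeR quasi-likelihood, adjusted p = 0.0584), and 1.48 without WT replicate 1, when it was called (edgeR adjusted p = 5.14e-05). It was called too under a filter of at least 1 count in all libraries (edgeR adjusted p = 0.000824) and in the DESeq2 Wald test (adjusted p = 0.0433), and not without the 3 libraries richest in ribosomal RNA (edgeR adjusted p = 0.232).

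Abcc9 at 1 month measured 6.42, 5.71 and 8.88 CPM in 5xFAD and 6.47, 1.80 and 1.88 CPM in WT. The same WT library lay inside the 5xFAD range while the other 2 were below it. The log2 fold change was 1.04 ± 0.48 (edgeR quasi-likelihood, adjusted p = 0.129), and 1.95 without WT replicate 1 (edgeR adjusted p = 0.0110). With that library left out, 2 mural genes were called higher in place of none.

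The other mural genes overlapped between the genotypes at 1 month, with edgeR adjusted p from 0.401 to 0.967. Kcnj8 (0.694, 2.67 and 0.718 CPM in 5xFAD, 2.94, 0.0899 and 4.20 CPM in WT) had a log2 fold change of -0.82 ± 1.03. Pdgfrb (14.1, 20.1 and 16.2 CPM in 5xFAD, 14.4, 15.5 and 11.4 CPM in WT) had one of 0.29 ± 0.22. For Acta2 it was 0.69 ± 0.98, for Myh11 0.28 ± 0.91, for Cspg4 0.08 ± 0.91 and for Tagln -0.54 ± 0.95. Tagln in WT rested on 1 library, with 49 counts there, 0 in replicate 2 and 11 in replicate 3.

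Whether the genotype difference itself changed between the ages was tested as an interaction. No mural gene passed in edgeR, where 25% of all genes did (11.7% positive and 13.3% negative). An unadjusted p below 0.05 was found for 3 mural genes and for at least that 25% of all genes. The fall of Rgs5 and Abcc9 in 5xFAD was therefore not shown to differ from their smaller differences in WT. The interaction was -1.05 ± 0.44 for Rgs5 (edgeR quasi-likelihood, adjusted p = 0.103) and -1.55 ± 0.69 for Abcc9 (adjusted p = 0.102). Kcnj8 had an edgeR adjusted p of 0.0788, and 0.0455 in the DESeq2 Wald test, the single mural gene called there. Without WT at 1 month replicate 1 the interaction was called for Rgs5 (-1.64, edgeR adjusted p = 9.13e-05) and Abcc9 (-2.47, adjusted p = 0.00985). Pdgfrb had an interaction of 0.18 ± 0.31 and Myh11 one of 0.01 ± 1.13.

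Composition of the libraries moved along with these values. With the dependence of each library on transcript length and GC removed, the fall with age in 5xFAD was -1.34 for Rgs5 (edgeR adjusted p = 0.00372) and -1.55 for Abcc9 (adjusted p = 0.0303), and both stayed called with Kcnj8 (adjusted p = 0.00853). Leaving out any 1 of the 6 libraries of that comparison kept all 3 called. Rgs5 at 1 month between the genotypes was 0.72 with that dependence removed (edgeR adjusted p = 0.0908).

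The transcript table shows which annotated isoforms the counts were assigned to. All counts of Pdgfrb (2211) went to Pdgfrb-201 and all counts of Rgs5 (5320) to Rgs5-201, each with 1 further annotated transcript at 0. Of the 6 annotated Abcc9 transcripts, Abcc9-203 took 99.2% of counts and Abcc9-202 the other 0.796%. Kcnj8 counts were split between Kcnj8-201 (71.9%) and Kcnj8-202 (28.1%), which had counts in 7 and 3 libraries. In 5xFAD at 1 month Kcnj8-202 took 82.2% of 45 counts, and in WT at 1 month Kcnj8-201 took all 85. Those libraries held 8, 29 and 8 counts in 5xFAD and 35, 1 and 49 in WT. The Kcnj8 shares thus rest on few fragments, and a difference between the groups was not tested.

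Cspg4 is the member whose counts lay mostly in transcripts annotated as retaining an intron. Its retained-intron transcripts Cspg4-202, Cspg4-203 and Cspg4-204 took 24.6%, 3.67% and 37.0% of its counts over all libraries, and the coding Cspg4-201 took 34.7%. By group the retained-intron share was 100% of 40 counts in 5xFAD at 6 months, all in Cspg4-204, and 55.7% of 24 counts in WT at 6 months. At 1 month it was 60% of 75 counts in 5xFAD and 55.0% of 73 counts in WT. Cspg4-201 had counts in 4 libraries only, so these shares rest on few fragments, and they were not tested.

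The smooth muscle genes were spread over several isoforms. Tagln counts went to Tagln-201 (68.6%), the retained-intron Tagln-203 (26.0%) and Tagln-202 (5.41%). The retained-intron share of Tagln was 23.0% in 5xFAD at 6 months, 27.8% in WT at 6 months, 13.1% in 5xFAD at 1 month and 36.4% in WT at 1 month. The share in 5xFAD at 6 months came from replicate 3 alone (16.82 of 24 counts) and that in WT at 1 month from replicate 1 alone (21.81 of 49 counts), and the other libraries of both groups held none. Acta2 was split between Acta2-201 (65.6%) and Acta2-202 (34.4%), and Myh11 between Myh11-204 (51.0%), Myh11-202 (38.3%) and Myh11-201 (9.91%), the last in 1 library. Of the 24 counts of Des, 65% went to Des-201 and 35% to the retained-intron Des-202.

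**Figure D3:**
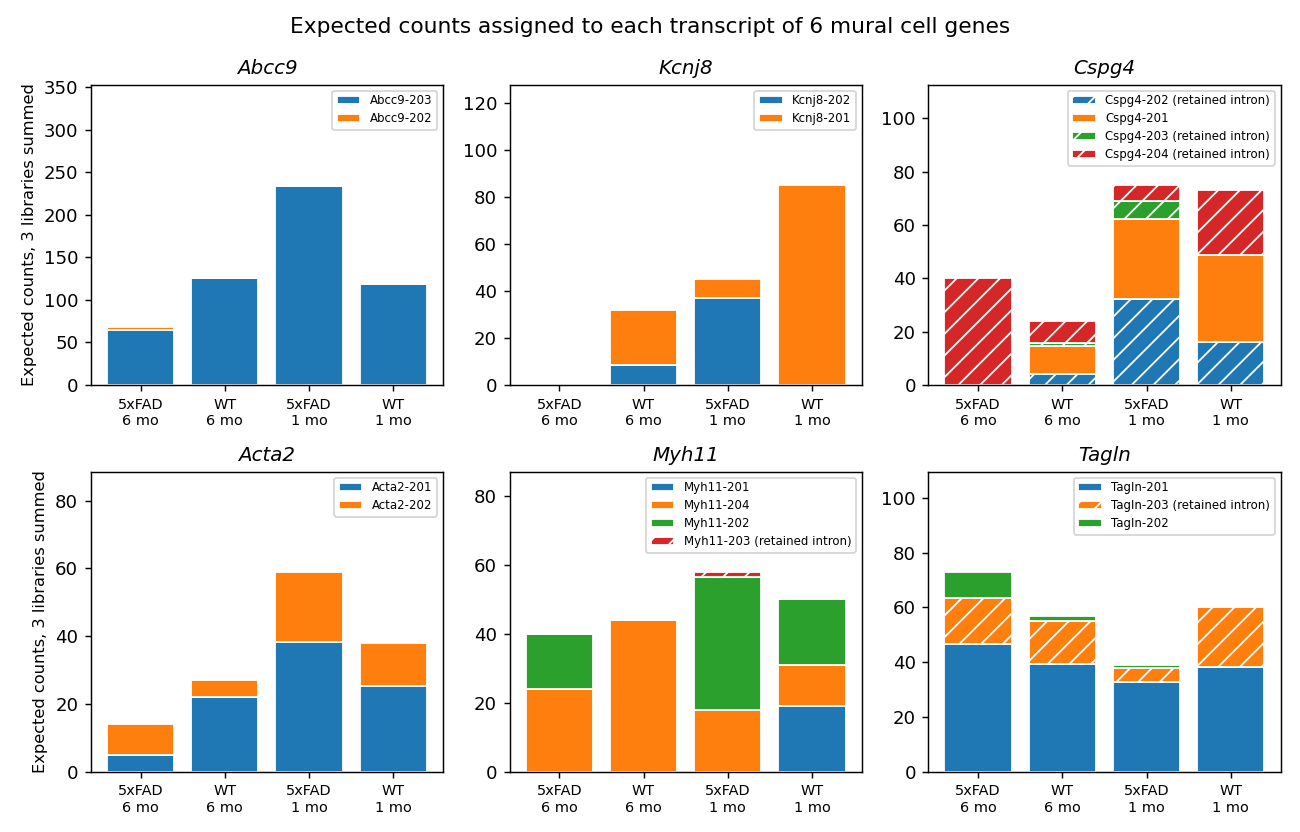
Expected counts assigned to each transcript of 6 mural genes, summed over the 3 libraries of a group (vertical axes), for 5xFAD and WT at 6 months and 5xFAD and WT at 1 month. Hatched parts are transcripts annotated as retaining an intron. All 40 counts of Cspg4 in 5xFAD at 6 months were in Cspg4-204, and Kcnj8 had none in that group.

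Further genes of the same cells were taken from lists. Of 23 other pericyte genes 14 were tested, and with age in 5xFAD 3 fell and 1 rose, with a median log2 fold change of -0.40 beside 0.03 over all genes, of which 12.4% fell and 10.8% rose. Notch3, the Notch receptor of mural cells, had 0.0853, 1.29 and 0.497 CPM in 5xFAD at 6 months and 4.08, 3.22 and 4.31 CPM in 5xFAD at 1 month (log2 fold change -2.61 ± 0.80, edgeR adjusted p = 0.0200). All 1-month libraries were above all 6-month ones, and the call was lost in 3 of 6 fits that left out a library (highest edgeR adjusted p = 0.0631). Rgs4 fell by 0.45 on the log2 scale, and its call was lost in 1 of 6 fits that left out a library (highest edgeR adjusted p = 0.0587). Without the 3 libraries richest in ribosomal RNA, which leaves 1 library in 5xFAD at 6 months, Rgs4 was at -0.23. Vtn, vitronectin, rose, from a level far above the other pericyte genes: 855, 846 and 739.9 CPM in 5xFAD at 6 months and 606, 597 and 609 CPM in 5xFAD at 1 month (0.43 ± 0.09, edgeR adjusted p = 0.000971). Without the 3 libraries richest in ribosomal RNA the rise of Vtn was 0.31. Which cells of the retina the Vtn counts come from was not tested, so the rise need not be one of pericytes. None of the 14 was called between the ages in WT or between the genotypes at 6 months. Vtn alone was called at 1 month, lower in 5xFAD (-0.26 ± 0.09), beside 8.91% of all genes. That call was lost in 5 of 6 fits that left out a library (highest edgeR adjusted p = 0.180).

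Of 20 other smooth muscle genes 13 were tested, and 3 fell with age in 5xFAD, none rose and 10 were not called (median log2 fold change -0.31, with 12.4% of all genes lower). Mylk, myosin light chain kinase, fell by 0.63 ± 0.12 on the log2 scale (edgeR adjusted p = 0.000836), and Filip1l by 0.50. With the dependence on length and GC removed Mylk was at -0.22 (edgeR adjusted p = 0.153), and Filip1l lost its call in 5 of 6 fits that left out a library (highest edgeR adjusted p = 0.186). The smooth muscle calponin gene Cnn1 had no count in any library. Between the genotypes, 2 of the 13 were lower in 5xFAD at 6 months, among them Filip1l (-0.65 ± 0.17, lost in 4 of 6 fits without a library, highest edgeR adjusted p = 0.136), beside 3.89% of all genes. At 1 month 1 was higher and 1 lower, beside 10.7% and 8.91% of all genes, the second being Myl6 (-0.52 ± 0.10). With the dependence on length and GC removed Myl6 was at -0.14 (edgeR adjusted p = 0.253). With age in WT, 1 of the 13 rose and none fell, beside 6.01% and 4.49% of all genes.

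Of 22 genes of the signals exchanged between mural and endothelial cells, 7 were lower and 1 higher with age in 5xFAD and 14 were not called (median log2 fold change -0.48), where 12.4% of all genes were lower and 10.8% higher. Eng, the endothelial TGF-beta co-receptor endoglin, had 0.938, 0.243 and 0.781 CPM in 5xFAD at 6 months and 5.99, 5.61 and 6.28 CPM in 5xFAD at 1 month (-3.17 ± 0.67, edgeR adjusted p = 0.00136). The groups were far apart. Cdh2, N-cadherin, fell by 0.55 ± 0.10 and Pdgfra, the receptor of glial and mesenchymal precursors, by 1.56 ± 0.30. Pdgfb, the endothelial ligand of the Pdgfrb receptor, had 1.28, 3.48 and 0.0710 CPM in 5xFAD at 6 months and 4.08, 2.21 and 2.69 CPM in 5xFAD at 1 month and was not called (-0.90 ± 0.95, edgeR adjusted p = 0.541). In WT 1 of the 22 fell with age, Acvrl1 (-1.20 ± 0.30), beside 4.49% of all genes, and its call was lost in 2 of 6 fits that left out a library (highest edgeR adjusted p = 0.0925). In 5xFAD against WT, 3 of the 22 were higher at 1 month (Cdh2, Tgfb2 and Notch1) beside 10.7% of all genes, and 1 was lower at 6 months (Cdh2) beside 3.89%. With a library left out, at 1 month Notch1, whose groups overlap, lost its call in 4 of 6 fits and Tgfb2 in 3 of 6, and Cdh2 at 6 months in 3 of 6 (highest edgeR adjusted p 0.172, 0.134 and 0.136). With the dependence on length and GC removed none of these 4 differences was called (edgeR adjusted p = 0.0915 for Cdh2 at 1 month and 0.0989 at 6 months).

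Of 11 regulators of contraction tested, 4 fell with age in 5xFAD, none rose and 7 were not called (median log2 fold change -0.25, with 12.4% of all genes lower), with Kcnma1, the large-conductance calcium-activated potassium channel, at -0.69 ± 0.10, Itpr1 at -0.64 ± 0.12 and Rock2 at -0.55 ± 0.10. With the dependence on length and GC removed none of these 3 was called: Kcnma1 was at -0.13, Itpr1 at -0.11 and Rock2 at -0.10 (edgeR adjusted p = 0.258, 0.554 and 0.568). In WT 2 of the 11 rose with age, Kcnma1 by 0.64 and Rock2 by 0.38, where 6.01% of all genes rose. At 1 month 3 of the 11 were higher in 5xFAD than in WT (10.7% of all genes), and at 6 months 3 were lower (3.89% of all genes). With length and GC dependence removed, Rock2 was at 0.09 with age in WT, 0.10 at 1 month and -0.09 at 6 months. Itpr1 was then at -0.0045 at 1 month and -0.15 at 6 months, and none of these was called (edgeR adjusted p 0.420 to 0.989). With a library left out, Rock2 at 6 months lost its call in 3 of 6 fits and Itpr1 in 4 of 6. The rise of Rock2 in WT lost its call without WT replicate 2 of either age. All 3 named genes are also expressed by neurons. Of 12 basement membrane genes, with age in 5xFAD 5 fell (median log2 fold change -0.55), where 12.4% of all genes fell. The smallest p was for Lamb1 (-0.91 ± 0.19) and Sparc (-0.42 ± 0.11). Col4a1 rose (0.52 ± 0.15), as did 10.8% of all genes. Col4a1 lost its call in 3 of 6 fits that left out a library (highest edgeR adjusted p = 0.0997). In WT 2 fell, Agrn (-0.60 ± 0.12) and Sparc (-0.48 ± 0.11), beside 4.49% of all genes. None was called between the genotypes at 6 months, and Agrn was lower in 5xFAD at 1 month (-0.36 ± 0.12), beside 8.91% of all genes. That call of Agrn was lost in each of the 6 fits that left out a library (edgeR adjusted p 0.0547 to 0.122).

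Of 18 endothelial genes tested, 8 fell with age in 5xFAD, none rose and 10 were not called, with a median log2 fold change of -1.12, where 12.4% of all genes fell. Kdr, the VEGF receptor, measured 83.1, 76.9 and 71.7 CPM in 5xFAD at 6 months and 172, 180 and 185 CPM in 5xFAD at 1 month (-1.21 ± 0.11, edgeR adjusted p = 2.91e-07). The groups were far apart. Cldn5, the tight junction claudin of endothelium, fell by 2.30 ± 0.46, and Tek, the angiopoietin receptor, by 2.16 ± 0.54. The most abundant endothelial gene, the glucose transporter Slc2a1, measured 157, 202 and 128 CPM in 5xFAD at 6 months and 151, 134 and 162 CPM in 5xFAD at 1 month, which overlap. In WT 1 of the 18 was called with age, Flt1, which rose by 0.56, beside 6.01% of all genes. At 1 month 3 of the 18 were higher in 5xFAD than in WT, with the smallest p for Kdr (0.72 ± 0.11), beside 10.7% of all genes. At 6 months Kdr alone was lower (-0.62 ± 0.11), beside 3.89% of all genes.

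Summed over each list, the 9 mural genes came to 39.9 to 47.9 CPM in 5xFAD at 6 months, 37.0 to 50.3 in WT at 6 months, 87.1 to 109 in 5xFAD at 1 month and 42.4 to 88.3 in WT at 1 month. The sum is mostly Rgs5 and Pdgfrb. The 18 endothelial genes came to 305 to 398 CPM in 5xFAD at 6 months, 401 to 443 in WT at 6 months, 481 to 518 in 5xFAD at 1 month and 379 to 425 in WT at 1 month. Both the mural and the endothelial sums were highest in 5xFAD at 1 month, apart from 1 WT library of that age in the mural sum. The endothelial sum is mostly Slc2a1, Kdr and Flt1, and endothelial genes of low level weigh little in it. One of these is Vwf, at 7.40 CPM in that WT library and 2.34 and 2.05 CPM in WT at 1 month replicates 2 and 3.

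Markers of other tissue that a dissected retina can carry were set beside the mural genes. Red cell genes, with Hbb-bs and Hba-a2 the most abundant, summed to 20.9 to 29.3 CPM in 5xFAD at 6 months, 12.1 to 16.8 in WT at 6 months, 81.6 to 128 in 5xFAD at 1 month and 66.7 to 155 in WT at 1 month. With age 5 of 5 tested fell in 5xFAD and 4 of 5 in WT, beside 12.4% and 4.49% of all genes. None was called between the genotypes. WT at 1 month replicate 1, the library with high Rgs5 and Abcc9, had the highest red cell sum of the 12. The part of blood or vessel content in the mural values was not tested.

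Pigment epithelium and pigment cell genes, led by Rlbp1 and Ttr, summed to 442 to 510 CPM in 5xFAD at 6 months, 395 to 471 in WT at 6 months, 304 to 344 in 5xFAD at 1 month and 503 to 571 in WT at 1 month. In every library most of the pigment sum is Rlbp1, which is also on the list of Müller glia and astrocyte genes. Rlbp1 averaged 404 CPM in 5xFAD and 350 in WT at 6 months, and 292 in 5xFAD and 404 in WT at 1 month. Of 11 pigment genes tested, 7 were lower in 5xFAD at 1 month, beside 8.91% of all genes, and 4 were not called. The median log2 fold change was -1.68 over the 11 genes and -0.04 over all genes. The smallest p was for Rpe65 (-2.74 ± 0.46), Rlbp1 (-0.47 ± 0.08) and Ttr (-2.29 ± 0.40). With age in 5xFAD 4 of the 11 rose, beside 10.8% of all genes. Fibroblast and scleral genes, led by Col6a1 and Col6a2, summed to 154 to 164 CPM in 5xFAD at 6 months and 168 to 213 in WT at 6 months. At 1 month they summed to 107 to 121 in 5xFAD and 247 to 259 in WT. Of 10 tested, 2 were lower in 5xFAD at 1 month, Col6a1 and Col6a2, beside 8.91% of all genes. Most of the fibroblast and scleral sum is Col6a1, which averaged 76.8 CPM in 5xFAD and 200 in WT at 1 month. Both the pigment and the fibroblast sums were lowest in 5xFAD at 1 month, the group in which Rgs5 and Abcc9 were highest. Each sum mostly follows its leading gene and was not taken without it, so it need not follow the whole tissue. Striated muscle genes, led by Ttn and Mylpf, stayed between 10.4 and 16.8 CPM in all 12 libraries, and none of 6 tested was called. The part of these tissues in the mural values was not tested.

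Markers of further cells of the eye were counted too. Of 10 tested Müller glia and astrocyte genes, 2 rose and 2 fell with age in 5xFAD, where 23.2% of all genes were called, and 4 rose in WT, where 10.5% were. Of 10 microglial genes 1 rose with age in 5xFAD, C1qc (1.62 ± 0.43), beside 10.8% of all genes. Of 2 tested lens genes 1 fell with age in 5xFAD, Cryaa, beside 12.4% of all genes. Of 3 tested optic nerve oligodendrocyte genes none was called between the ages. Cryaa, a crystallin of the lens, had 4.51, 39.3 and 12.7 CPM in 5xFAD at 1 month and 0.0840, 0.270 and 0 CPM in WT at 1 month (log2 fold change 7.23 ± 1.23, edgeR adjusted p = 0.00173). Mbp, the myelin basic protein, was also higher in 5xFAD at 1 month (0.64 ± 0.17, edgeR adjusted p = 0.00950). The part of lens or optic nerve in the mural values was not tested.

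**Figure D4:**
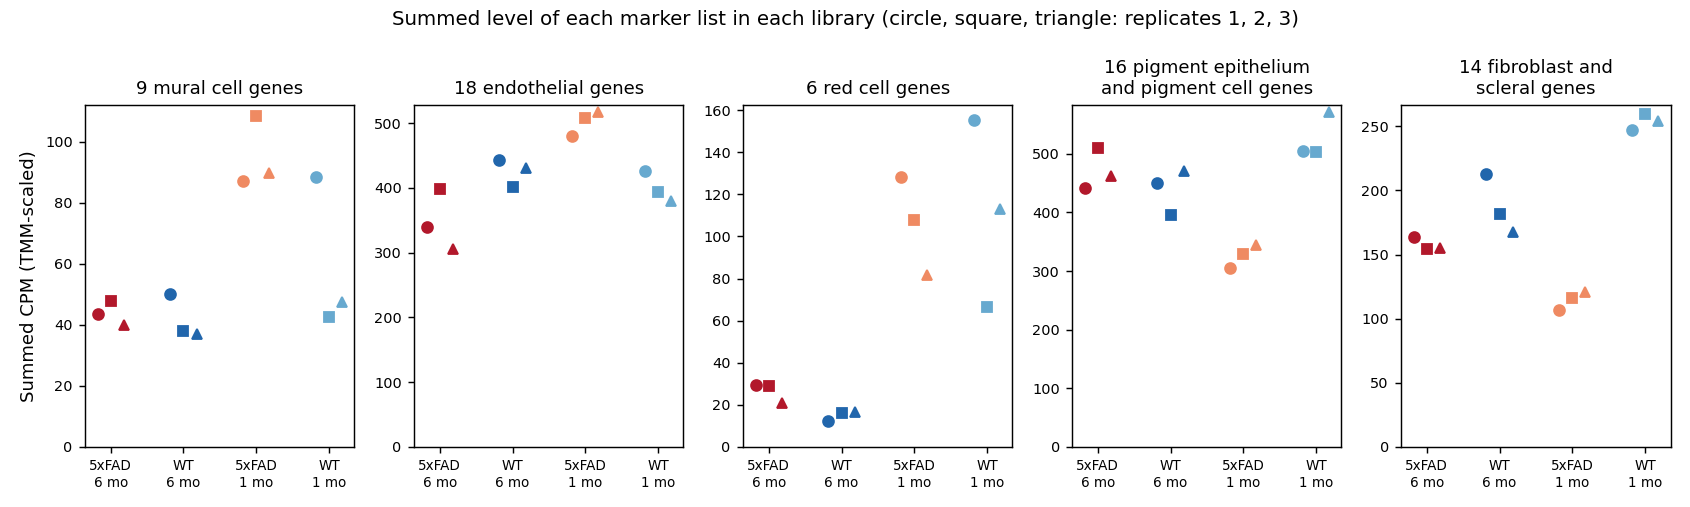
Summed levels of 5 marker lists in each library, in TMM-scaled CPM (vertical axes, each from 0), for 5xFAD and WT at 6 months and 5xFAD and WT at 1 month. Circles, squares and triangles are replicates 1, 2 and 3. The mural and endothelial sums were highest in 5xFAD at 1 month, apart from 1 WT library of that age in the mural sum, and there the pigment epithelium and fibroblast sums were lowest, and the red cell sums separate the ages. Most of the endothelial sum is Slc2a1, Kdr and Flt1, most of the pigment epithelium sum Rlbp1 and most of the fibroblast sum Col6a1.

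Across the 12 libraries the measured levels of the mural genes did not form a single pattern. Kcnj8, Acta2, Myh11 and Tagln have at most 49 counts in a library. Counting error at that depth lowers a correlation, so a low value for these genes does not show that they differ. As a description, over libraries that share group, depth and composition, the Pearson correlation of log2 CPM was 0.943 between Abcc9 and Rgs5, 0.750 between Rgs5 and Acta2, and 0.706 between Abcc9 and Acta2. It was 0.621 between Kcnj8 and Rgs5 and 0.550 between Kcnj8 and Abcc9. Pdgfrb correlated at 0.356 with Rgs5 and 0.298 with Abcc9, and Acta2 at 0.113 with Myh11 and 0.0945 with Tagln. Without WT at 1 month replicate 1, over 11 libraries, an alternative chosen after seeing the data, it was 0.935 between Abcc9 and Rgs5, 0.718 between Rgs5 and Acta2, 0.666 between Abcc9 and Acta2, 0.562 between Kcnj8 and Rgs5 and 0.473 between Kcnj8 and Abcc9. It was then -0.0106 between Acta2 and Myh11 and -0.0671 between Acta2 and Tagln. Among 13282 protein-coding genes of at least 1 CPM, those most like the mean of Abcc9, Kcnj8, Pdgfrb and Rgs5 were 2610507B11Rik (r = 0.962), Vwf (0.944), Tek (0.938), Lss (0.934) and Zdbf2 (0.917). Vwf, the von Willebrand factor of endothelium, averaged 2.94 CPM in 5xFAD at 6 months, 2.85 in WT at 6 months, 8.32 in 5xFAD at 1 month and 3.93 in WT at 1 month. The WT mean at 1 month is of 7.40, 2.34 and 2.05 CPM in replicates 1, 2 and 3. Those most like the mean of Acta2, Myh11 and Tagln were Esr1 (0.868), 2210408I21Rik (0.867), Zfp629 (0.862), Prlr (0.852) and Tek (0.852). Without that WT library the r of these 10 entries ran from 0.793 to 0.958, and 1 of the 10 was still among the 5 most like its mean, 2610507B11Rik.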

How the data were processed

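The deposited values are the authors' expected counts (estimated counts, which need not be whole) per gene and per transcript for 12 libraries, made before deposit and not scaled. The tools listed in the submitters' processing notes are RSEM 1.3.3, STAR 2.7.1a, DESeq2 1.32.0 and Trim Galore 0.6.6, with GRCm38.p6 as the build. Their roles are not listed, and the annotation is not given in the sources used here. Identifiers were matched to GENCODE M21 on GRCm38 (55227 of 55487 genes, 141469 of 142699 transcripts). Rounded counts were tested with edgeR 4.0.16 in R 4.3.3 (TMM, filterByExpr by group, robust quasi-likelihood fit of all 12 libraries, 8 residual degrees of freedom), with Benjamini-Hochberg adjustment over 16233 genes. SE is the absolute log2 fold change over the square root of F, and log2 CPM had a prior count of 2. TPM used count-weighted transcript lengths.

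Unstranded counting cannot separate overlapping antisense RNA. No library was a copy of another (chi-square per degree of freedom 4.05 to 26.7 between replicates). Replicate numbers did not pair the samples: deviations of same-numbered libraries correlated at -0.0852 to 0.0623. The steps were tested on simulated counts with changes put in between the genotypes at 1 month. At 0.5 to 5 CPM edgeR called 0 of 25 changes of 2-fold and 12 of 50 of 4-fold. At 5 CPM or more it called 22 of 25 and 50 of 50. Far fewer genes were changed in the simulation than the 3178 called at 1 month in the data. The adjustment is stricter with fewer changed genes, so recovery in the data may differ. Among the genes left unchanged there were 10 false calls in that comparison. A gene of low level that was not called may therefore still differ. The members, the 15 further lists and the naming rule were chosen with earlier results of these data known. By that rule all 9 members are named, and from each list at most 3 called genes per comparison with the smallest p and, for other cell types, the 2 most abundant. Results of 1 eligible gene are not reported here. Kcnj11, Abcc8, Pdgfb and Cnn1 were named outside it, after their values were seen. The alternatives comprised DESeq2 1.42.0 (size factors and Wald test), library size alone, a filter of 1 count in all or of 1 CPM in 3 libraries, a replicate block, only the samples compared, each replicate left out, a fit without the 3 libraries richest in ribosomal RNA, removal of the dependence on length and GC (splines, 4 degrees of freedom), a fit without pseudogenes, mitochondrial genes and ribosomal RNA, and the longest transcript for TPM. Figures used Python 3.11.15, pandas 2.3.3, numpy 2.4.6 and matplotlib 3.10.9.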

Additional observations from a re-analysis of the deposited data

Results flagged for a closer look

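No mural gene had a called interaction of genotype and age in edgeR, where 25% of all genes tested were called (quasi-likelihood, Benjamini-Hochberg adjusted). Of the related lists, 2 of 14 other pericyte genes, 3 of 13 other smooth muscle genes, 7 of 22 mural signalling genes, 6 of 11 regulators of contraction, 2 of 12 basement membrane genes and 3 of 18 endothelial genes were called, and at most 3 of each, 15 in all, are named. Each log2 value below is the 5xFAD against WT difference at 6 months minus that at 1 month. Among other pericyte genes these were Vtn (0.53, adjusted p = 0.00273) and Kcnk3 (-0.62, adjusted p = 0.0472). The 5xFAD against WT difference of Vtn was 0.27 at 6 months, which was not called, and -0.26 at 1 month. The 1-month call was lost in 5 of 6 fits that left out a library. Without the 3 libraries richest in ribosomal RNA the interaction of Vtn was 0.33. Among other smooth muscle genes they included Filip1l (-0.71) and Myl6 (0.40). Among the mural signalling genes they were Cdh2 (-0.79), Tgfb2 (-0.70) and Jag1 (0.56). Among the regulators of contraction they were Kcnma1 (-1.33, adjusted p = 1.41e-06), Rock2 (-0.92) and Itpr1 (-0.92). Basement membrane genes gave Agrn (0.55) and Lamb1 (-0.77). Endothelial genes gave Kdr (-1.34, adjusted p = 1.41e-06), Flt1 (-0.88) and Abcb1a (-2.30). With the dependence on length and GC removed, Myl6 turned to -0.11, and by edgeR Rock2 was at -0.18 (adjusted p = 0.389), Itpr1 at -0.14 (0.553), Flt1 at -0.29 (0.215), Lamb1 at -0.45 (0.250), Tgfb2 at -0.27 (0.266), Kcnk3 at -0.51 (0.122), Filip1l at -0.45 (0.154) and Vtn at 0.21 (0.0695), none of them called. With a library left out, the call was lost in 11 of 12 fits for Myl6, 9 for Kcnk3, 8 for Filip1l, 7 for Lamb1 and 4 for Agrn. What these differences come from was not tested.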

How the results depend on the processing

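Of 676 values of mural genes under the alternatives, 624 kept their direction and side of the threshold, 14 passed it, 1 no longer passed it and 37 changed sign, with no value called on either side of a sign change. The fall of Rgs5, Abcc9 and Kcnj8 with age in 5xFAD was called under each alternative run, except Rgs5 without the 3 libraries richest in ribosomal RNA (-1.37) and Kcnj8 in a fit of the 6 samples alone, where it was not tested. The count of mural genes called at 1 month was 1 with a filter of 1 count in all, with the replicate block (Rgs5, 0.99, edgeR adjusted p = 0.0269) and with the DESeq2 Wald test, and 0 to 2 with a replicate left out. At 6 months it was 1 with that filter and with the dependence on length and GC removed, and 0 to 1 with a replicate left out. In the interaction it was 2 with that filter and 1 with DESeq2, and 0 to 2 with a replicate left out. The replicate block changed no other call of a mural gene.

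Counts over all genes were 501 at 6 months with the 6 samples alone. Without the 3 libraries richest in ribosomal RNA they were 321 at 6 months, 1947 for age in 5xFAD and 2354 for the interaction. With that dependence removed they were 1842 at 1 month and 2315 for age in 5xFAD. With a replicate left out they were 1893 to 2868 at 1 month, 276 to 1687 at 6 months and 780 to 1855 for age in WT.

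The Myh11 interaction, 0.01, was -0.0055 with DESeq2 size factors, -0.035 with the filter of 1 count, -0.026 with 1 CPM in 3 samples, -0.16 with the replicate block, -0.0046 with the DESeq2 Wald test, -1.15 without the libraries rich in ribosomal RNA and -0.018 without pseudogenes, mitochondrial and ribosomal RNA genes. Without the libraries rich in ribosomal RNA, Pdgfrb (-0.048) and Myh11 (-1.05) at 6 months and the Pdgfrb interaction (-0.42) also turned. With the dependence on length and GC removed, Cspg4 (-0.10), Myh11 (-0.011), Vtn (0.0067) and Itpr1 (-0.0045) at 1 month, Pdgfrb with age in 5xFAD (0.20) and the Myl6 interaction (-0.11) turned.

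With a replicate left out, log2 values that changed sign ran as follows. At 1 month Cspg4 ran from -0.17 to 0.55, Myh11 from -0.032 to 1.00 and Tagln from -1.12 to 1.29. At 6 months Rgs5 ran from -0.26 to 0.042, Cspg4 from -0.35 to 1.69, Acta2 from -1.47 to 0.0027 and Myh11 from -0.56 to 1.17. With age, Pdgfrb in 5xFAD ran from -0.24 to 0.093, and in WT Abcc9 ran from -0.72 to 0.49, Rgs5 from -0.73 to 0.11, Myh11 from -1.55 to 0.053 and Tagln from -1.17 to 1.25. In the interaction Cspg4 ran from -0.43 to 1.58, Myh11 from -0.86 to 0.87 and Tagln from -0.53 to 1.90. The cause of these changes was not tested. Depth limits Cspg4, Acta2, Myh11, Tagln, Kcnj8 and Des, each with at most 49 counts in a library.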
